A study of Mus musculus with 6 samples.

Results

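The genes described here are 10 genes of fatty acid synthesis and desaturation, chosen by name: the regulator gene Srebf1, the synthesis genes Acly, Acaca, Acacb and Fasn, the desaturase genes Scd1 and Scd2, the elongase genes Elovl6 and Elovl5, and the NADPH source Me1. All 10 were among the 18193 genes with a probe set of their own on the array, and 24 of the array's probe sets carried one of these symbols as their single gene name. For each gene the probe set with the highest mean over the arrays was taken as the main one. A gene was tested if the mean of its log2 values was at least the median over all probe sets, a signal of 50.2, and 9 of the 10 genes passed. Elovl6 lay just under that level.

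The study measured RNA of whole hearts from male mice aged 2 months on 6 Affymetrix arrays, with 2 arrays for each of 3 groups on a B6 background. The RKIP-transgenic group came from a mouse line with RKIP, which inhibits both RAF kinase and the kinases of G-protein-coupled receptors (GRKs), behind the alpha-MHC promoter, which is active in heart muscle cells. The GRK-Inh-transgenic group came from a line that makes a peptide inhibitor of GRKs in the myocardium, from a promoter that the labels do not name. B6 control mice were wild type, and no treatment is given for any group. The labels name a single line for each transgene, so an effect of the transgene and of its insertion site cannot be told apart. They do not state that each array was a separate animal, so the p-values measure the spread between these samples, which may be technical. In whole-heart RNA, fewer cells of a type and less RNA per cell cannot be told apart.

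Fatty acid synthesis takes place in the cytosol. ATP citrate lyase, encoded by Acly, cuts citrate to acetyl-CoA, the acetyl-CoA carboxylases of Acaca and Acacb turn this into malonyl-CoA, and the fatty acid synthase of Fasn builds palmitate from it with NADPH, part of which comes from the malic enzyme of Me1. Elovl6 and Elovl5 lengthen fatty acids, and the stearoyl-CoA desaturases of Scd1 and Scd2 put in the double bond that makes oleate and palmitoleate. Srebf1 encodes SREBP-1, the transcription factor that switches on most of these genes, above all in liver and fat. The heart makes little fat of its own and burns fatty acids instead. There the malonyl-CoA made by the enzyme of Acacb is known mainly as a brake on the entry of fatty acids into mitochondria.

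SREBP-1 binds sterol regulatory elements (SREs) next to sites for the factors NF-Y and Sp1, so the bases before the start sites of 5 of these genes are shown. Srebf1, Fasn, Acly and Elovl5 gave lower signals in RKIP-transgenic hearts. In GRK-Inh-transgenic hearts Srebf1 was also lower and Me1 gave a higher signal. Acacb, which gave a higher signal in RKIP-transgenic hearts, is among the genes not shown. The RefSeq promoter table (build GRCm38.p6) held entries for 8 of the 10 genes. Scd1 and Scd2 were not in it. Each sequence gives the 250 bases before a listed start, 5′ to 3′ on the gene's own strand. Capitals mark matches on either strand to TCACCC (the core of an SRE), CCAAT (the NF-Y box), GGGCGG (the Sp1 box) or CACGTG (an E-box). The windows are Srebf1 at chr11:60210472-60210721 on the minus strand, the third of 3 listed starts, Fasn at chr11:120824548-120824797 (minus), Acly at chr11:100528001-100528250 (minus), Elovl5 at chr9:77917115-77917364 (plus) and Me1 at chr9:86695915-86696164 (minus), the first of 2 starts. The other listed starts of Srebf1 lie further upstream, so the window shown lies within that gene's span. Fasn has 1 listed start.
Srebf1: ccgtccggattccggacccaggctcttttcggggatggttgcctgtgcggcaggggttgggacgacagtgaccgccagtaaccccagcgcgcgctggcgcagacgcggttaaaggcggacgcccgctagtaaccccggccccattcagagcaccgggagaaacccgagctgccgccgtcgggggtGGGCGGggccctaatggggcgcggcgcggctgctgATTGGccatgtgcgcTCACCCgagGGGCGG
Fasn: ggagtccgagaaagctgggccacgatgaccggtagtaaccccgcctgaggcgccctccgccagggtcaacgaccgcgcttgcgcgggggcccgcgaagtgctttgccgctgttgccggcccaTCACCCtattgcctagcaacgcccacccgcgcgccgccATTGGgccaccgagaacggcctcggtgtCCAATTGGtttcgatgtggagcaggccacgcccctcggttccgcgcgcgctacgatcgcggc
Acly: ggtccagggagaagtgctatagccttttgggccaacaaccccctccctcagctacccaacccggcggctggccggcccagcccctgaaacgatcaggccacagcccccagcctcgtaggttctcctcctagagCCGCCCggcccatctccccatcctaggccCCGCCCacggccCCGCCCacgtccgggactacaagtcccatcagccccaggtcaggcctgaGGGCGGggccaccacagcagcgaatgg
Elovl5: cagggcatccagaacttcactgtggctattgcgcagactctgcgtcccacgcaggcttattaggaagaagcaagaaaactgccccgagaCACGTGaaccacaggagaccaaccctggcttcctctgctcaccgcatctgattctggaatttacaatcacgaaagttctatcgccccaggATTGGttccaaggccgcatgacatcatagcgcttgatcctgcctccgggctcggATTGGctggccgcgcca
Me1: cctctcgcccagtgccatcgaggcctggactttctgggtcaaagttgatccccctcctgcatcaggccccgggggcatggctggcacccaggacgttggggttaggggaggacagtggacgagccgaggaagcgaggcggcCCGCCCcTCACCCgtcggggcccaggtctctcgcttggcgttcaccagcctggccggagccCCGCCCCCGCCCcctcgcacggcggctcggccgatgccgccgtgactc

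The window of Srebf1 holds an inverted CCAAT box, a TCACCC core and a GC box within the last 30 bases before the start, and the window of Fasn holds the core 128 to 123 bases before it and 3 CCAAT boxes nearer to it, of which the last pair overlaps. The core was found in some window of 3 of the 8 genes with an entry (Srebf1, Fasn and Me1), and in 15.6% of all 27025 genes in the table (13.8% of its 32851 windows of this length). For Srebf1 and Me1 the window shown is the one with the core. Windows 1 and 2 of Srebf1 and window 2 of Me1, not shown, did not hold it. Counted per gene in the same way, the CCAAT box was in 5 of the 8 and in 37.5% of all genes (33.8% of windows), the GC box in 3 and 35.4% (32.7%), and the E-box in 1, Elovl5, and 6.86% (6.02%). A longer form of the SRE, TCACNCCAC, was in 0 of the 8 and in 1.22% of genes (1.05%). The windows of Acaca and Acacb, the latter among the 5 with a CCAAT box, have letters like those of a splice acceptor at or near their end and may not be promoters. TCACCC was chosen after these sequences had been read, and it overlaps the longer form. These matches describe letters and do not show binding.

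The 6 arrays had median signals of 50.4 to 55.2 after the authors' scaling. Pebp1, the mouse gene of RKIP, gave 8766 to 9296 on its brighter probe set over all arrays and was not called in any comparison. This does not check the label, since a transgene of another species or without the probed part would not be seen, so the group is called RKIP-labelled from here on. Myh6, 1 of 8 listed heart muscle markers, gave 35906 to 39466 on every array. Of the genes that mark other tissues, Alb of liver stayed at or below 44.5, Ucp1 of brown fat at or below 37.2, and the Schwann cell gene Sox10 between 34.0 and 83.0.

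Scd1, whose enzyme makes most of the oleate in liver and fat, moved in opposite directions in the transgenic lines. The B6 control arrays gave signals of 803 and 665, the RKIP-labelled arrays 437 and 472, and the GRK-Inh arrays 1551 and 1525. No array of a group overlapped another group. The mean signal was 734 ± 97.6 in control, 455 ± 25.1 in RKIP-labelled and 1538 ± 18.4 in GRK-Inh hearts (± SD, n = 2 arrays per group). By the limma model over all arrays, Scd1 fell in RKIP-labelled hearts by 0.63 ± 0.093 on the log2 scale (± SE, adjusted p = 0.00162) and rose in GRK-Inh hearts by 1.02 ± 0.093 (adjusted p = 4.8e-05). Log2 values throughout are of the signal plus 50, which understates changes of dim genes. The direct difference between the lines was -1.66 ± 0.093 (limma adjusted p = 1.5e-06), that is 3.15-fold lower in RKIP-labelled hearts (95% confidence interval of the log2 difference -1.86 to -1.45). All 3 calls held under each of 18 other settings. The other Scd1 probe set was dim, at 31.6 to 76.9 with overlapping groups, and with the log2 values of both averaged the rise in GRK-Inh hearts was 0.56 and the difference between the lines -1.0.

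Scd2, the desaturase gene that is more widely expressed outside liver, was lower in both lines. Control arrays gave 1064 and 1008, RKIP-labelled arrays 792 and 853, and GRK-Inh arrays 532 and 593. The 3 groups kept apart in this order. Scd2 fell by 0.83 ± 0.083 in GRK-Inh hearts (limma adjusted p = 9.2e-05), a call kept under all 18 settings. It fell by 0.32 ± 0.083 in RKIP-labelled hearts (limma adjusted p = 0.0337, 0.0261 to 0.306 over the settings). That smaller call was lost under 7 settings, among them without either RKIP-labelled array and without either control array. The direct comparison put Scd2 0.51 ± 0.083 higher in RKIP-labelled than in GRK-Inh hearts (limma adjusted p = 0.00354), a call lost with probe sets averaged or a variance that does not follow the signal level. Its second probe set, at 26.0 to 82.9, also had its lowest signals on the GRK-Inh arrays, without passing by limma when probe sets were tested one by one (log2 fold change -0.64 against control, adjusted p = 0.0512). Scd1 and Scd2 are close paralogs, and whether their probes tell the transcripts fully apart was not tested. In the GRK-Inh hearts the main probe sets of the paralogs were called in opposite directions.

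**Figure D1:**
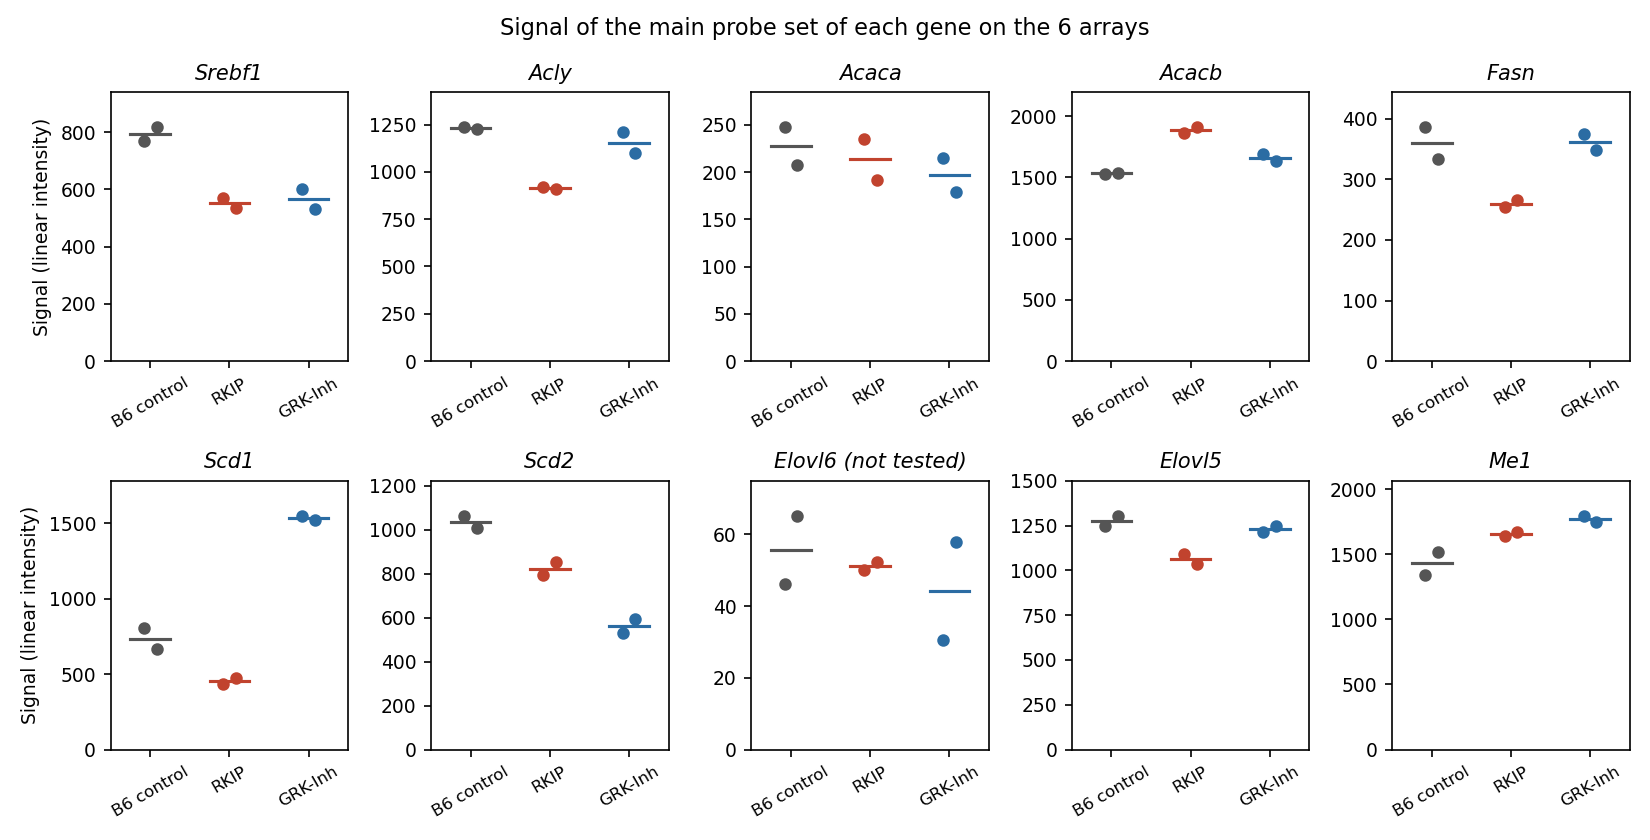
Signal (linear intensity, axes from 0) of the main probe set of each of the 10 genes, by group; each point is an array and each bar the mean of 2 arrays. Scd1 is highest in the GRK-Inh hearts (1538) and lowest in the RKIP-labelled hearts (455), Scd2 falls from control to RKIP-labelled to GRK-Inh hearts, and Srebf1 is lower in both lines.

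Srebf1 itself was lower in both lines by similar amounts. The control arrays gave signals of 770.1 and 818, the RKIP-labelled arrays 571 and 537, and the GRK-Inh arrays 601 and 531. Both transgenic groups lay below control and overlapped each other. Srebf1 fell by 0.48 ± 0.089 in RKIP-labelled hearts (limma adjusted p = 0.00614, 0.00539 to 0.0597 over the settings) and by 0.46 ± 0.089 in GRK-Inh hearts (adjusted p = 0.0062, 0.00552 to 0.0588). Both comparisons use the same control arrays, and both calls were lost without control array 2. The call in RKIP-labelled hearts was also lost with a variance that does not follow the signal level, and that in GRK-Inh hearts without GRK-Inh array 2. The lines differed by -0.026 with a 95% confidence interval of -0.22 to 0.17. The single probe set of Srebf1 does not give the promoter from which the transcript started.

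Of the genes that make palmitate, Acly and Fasn fell in RKIP-labelled hearts and were not called in GRK-Inh hearts. Acly signals were 1237 and 1227 in control, 921 and 907 in RKIP-labelled, and 1211 and 1098 in GRK-Inh hearts. The RKIP-labelled arrays lay apart below the other 4, and the change was a fall of 0.41 ± 0.070 (limma adjusted p = 0.0041, 0.00366 to 0.758 over the settings). The direct difference between the lines was -0.32 ± 0.070 (limma adjusted p = 0.0183), a call lost under 5 settings, among them without either RKIP-labelled array and without GRK-Inh array 1. Acly has 6 probe sets, of which 3 passed the filter. The second brightest was also lower in RKIP-labelled hearts (764 and 694, against 913 and 840.5 in control) without passing when tested singly by limma (-0.25 ± 0.085, adjusted p = 0.112). With all 6 averaged, the difference from control was -0.071 and that between the lines -0.10, neither of them called.

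Fasn, with 1 probe set, gave 387 and 333 in control, 254 and 267 in RKIP-labelled, and 376 and 349 in GRK-Inh hearts. The RKIP-labelled arrays were again the lowest, and the other groups overlapped. It fell by 0.40 ± 0.11 in RKIP-labelled hearts (limma adjusted p = 0.043). This call stood close to the threshold and was lost under 13 of 18 settings, among them the omission of any 1 of the 6 arrays (adjusted p up to 0.224). Against GRK-Inh hearts the difference was -0.41 ± 0.11 (limma adjusted p = 0.0447), and 8 of 18 settings kept it. In GRK-Inh against control hearts Fasn differed by 0.011, with a 95% confidence interval of -0.23 to 0.26.

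The carboxylase genes did not follow Fasn. Acacb, the form abundant in heart and skeletal muscle, was the brightest in RKIP-labelled hearts, with control signals of 1527 and 1539, RKIP-labelled signals of 1866 and 1911, and GRK-Inh signals of 1689 and 1633. The 3 groups did not overlap. Acacb rose by 0.29 ± 0.057 in RKIP-labelled hearts (limma adjusted p = 0.00831, 0.00621 to 0.297 over the settings), a call lost without RKIP-labelled array 2, with probe sets averaged and with a variance without trend. The GRK-Inh difference of 0.11 ± 0.057 from control (limma adjusted p = 0.227) and the difference between the lines of 0.18 ± 0.057 (adjusted p = 0.079) did not pass. Acaca, the form of liver and fat, gave 179 to 248 over all arrays with overlapping groups. Its differences from control were -0.074 in RKIP-labelled (95% confidence interval -0.39 to 0.24) and -0.17 in GRK-Inh hearts (-0.48 to 0.15).

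Me1, which supplies NADPH and is also induced by the oxidant response factor NRF2, was higher in GRK-Inh hearts. Its control signals were 1341 and 1519, its RKIP-labelled signals 1643 and 1674, and its GRK-Inh signals 1798 and 1752. Both transgenic groups lay above control. Me1 rose by 0.31 ± 0.068 in GRK-Inh hearts (limma adjusted p = 0.0137, 0.00668 to 0.0964 over the settings), a call lost without either GRK-Inh array, without control array 1 and with a variance without trend. In RKIP-labelled hearts the difference of 0.21 ± 0.068 did not pass (limma adjusted p = 0.0801). It was 0.12 without control array 1, and it was called without control array 2 (0.30, adjusted p = 0.0452) and with probe sets averaged (0.23, adjusted p = 0.0448). The lines differed by -0.095 (95% confidence interval -0.25 to 0.056). The second Me1 probe set had a log2 fold change of 0.29 in GRK-Inh hearts (adjusted p = 0.0218 by limma over single probe sets) and 0.24 in RKIP-labelled hearts (adjusted p = 0.0572).

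The elongase gene Elovl5, whose enzyme lengthens polyunsaturated fatty acids, gave 1246 and 1307 in control, 1091 and 1034 in RKIP-labelled, and 1216 and 1248 in GRK-Inh hearts. It fell by 0.25 ± 0.066 in RKIP-labelled hearts (limma adjusted p = 0.0335, 0.0239 to 0.163 over the settings). The call was lost under 7 settings, among them without either RKIP-labelled array and without either control array. The second probe set ranged from 751 to 1011, was lowest in RKIP-labelled hearts and did not pass (log2 fold change -0.19, adjusted p = 0.27 by limma over single probe sets). In GRK-Inh hearts the difference from control was -0.049 (95% confidence interval -0.20 to 0.097), and the lines differed by -0.20 ± 0.066 without passing (limma adjusted p = 0.0864). Elovl6, which takes palmitate to stearate and is a strong SREBP-1 target in liver, was at 30.4 to 65.2 on its brightest probe set. Fitted by limma without a filter, its differences were -0.057 ± 0.21 in RKIP-labelled and -0.18 ± 0.21 in GRK-Inh hearts (adjusted p = 0.934 and 0.721) with 95% confidence intervals of -0.53 to 0.41 and -0.65 to 0.30.

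**Figure D2:**
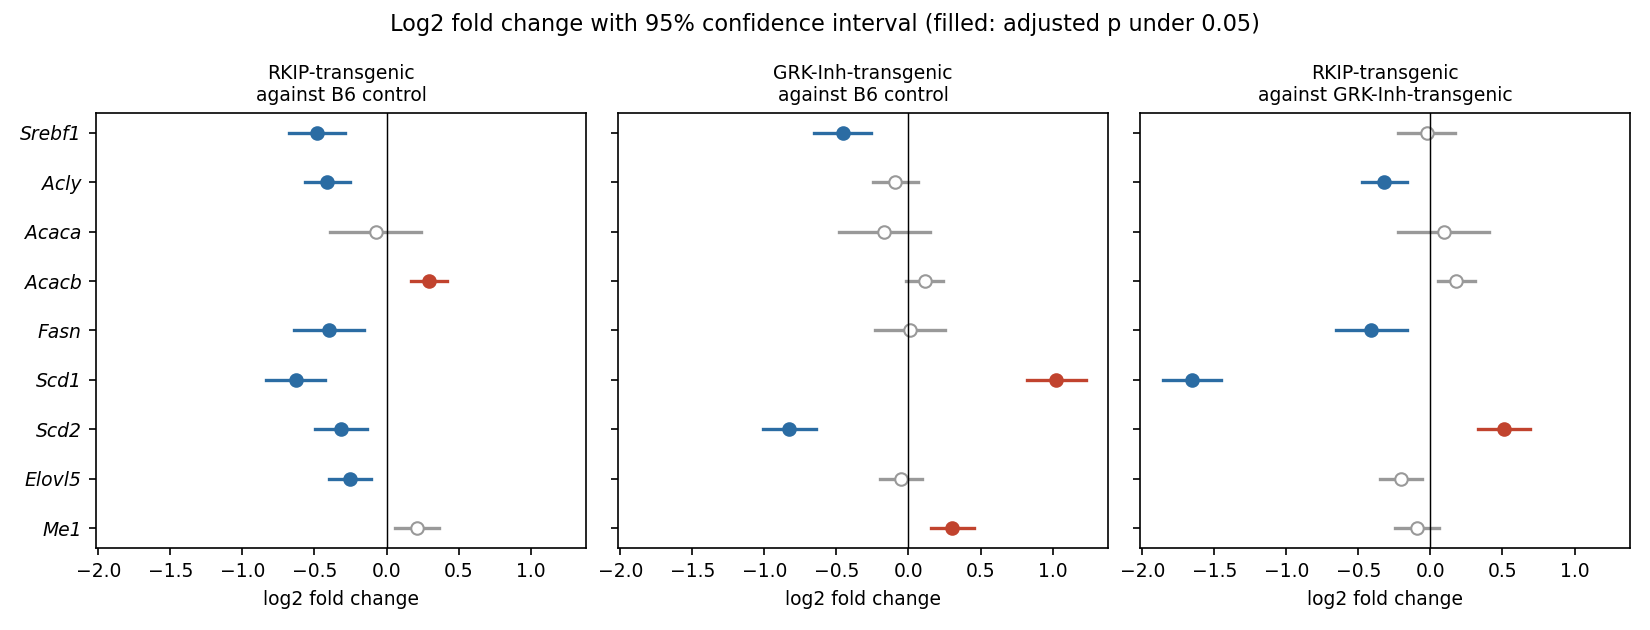
Log2 fold change (horizontal axis) of the 9 tested genes in 3 comparisons; lines are 95% confidence intervals and filled points passed an adjusted p of 0.05, with red for higher and blue for lower. The interval of Scd1 lies below 0 in RKIP-labelled hearts (-0.84 to -0.43) and above 0 in GRK-Inh hearts (0.82 to 1.23).

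Counted over the 9 genes tested, 1 rose and 6 fell in RKIP-labelled hearts, in a comparison where 10.8% of the 11254 genes tested were called (5.32% higher and 5.52% lower). The median log2 fold change of the 9 was -0.32, beside -0.017 over all genes tested. Without RKIP-labelled array 1 the count was 4 (1 higher and 3 lower), without array 2 it was 3 (all lower), and without control array 1 it was 4 (1 higher and 3 lower). Without control array 2 it was 4, of which 2 were higher and 2 lower, and 1 of these was Me1, which was not called with all arrays. Averaging a gene's probe sets gave 4 (1 higher and 3 lower), with Acly, Acacb, Scd2 and Elovl5 lost and Me1 gained. No filter gave 4, and a variance that does not follow the signal level gave 1, Scd1. In GRK-Inh hearts 2 of the 9 rose and 2 fell, where 13.1% of all genes were called (5.85% higher and 7.25% lower), and the medians were -0.049 and -0.031. Without GRK-Inh array 2 the count was 2. Between the lines, 1 of the 9 (Scd2) was higher in RKIP-labelled hearts and 3 (Scd1, Acly and Fasn) were lower, where 8.84% of all genes were called (4.47% higher and 4.37% lower). That count of 4 was 2 without either RKIP-labelled array or without GRK-Inh array 1.

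Fat tissue on the surface of the heart is rich in several of these transcripts, so markers of white adipocytes were read on the same arrays. Of 12 listed markers 9 had a probe set and 7 were tested. In RKIP-labelled hearts 0 rose and 3 fell, where 5.32% of all genes tested were called higher and 5.52% lower. The adipocyte hormone gene Adipoq gave 288 and 307 in control, 88.8 and 80.8 in RKIP-labelled, and 434 and 260 in GRK-Inh hearts. Its RKIP-labelled arrays lay far below the other 4 (log2 fold change -1.37 ± 0.18, limma adjusted p = 0.000929), and its GRK-Inh arrays enclosed both control arrays. Car3, abundant in fat and skeletal muscle, gave 3412 and 3212 in control, 1019 and 1073 in RKIP-labelled, and 3670 and 3209 in GRK-Inh hearts. Fabp4, also made by heart endothelium, fell in both lines, by 0.24 ± 0.039 in RKIP-labelled and 0.20 ± 0.039 in GRK-Inh hearts (limma adjusted p = 0.00309 and 0.00615). The leptin gene Lep stayed at or below 19.9 on every array.

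The summed signal of the 9 adipocyte markers, most of it Fabp4, was 25818 to 27099 in control, 19920 to 20937 in RKIP-labelled and 23728 to 23827 in GRK-Inh hearts. The lower Scd1, Acly and Fasn signals of the RKIP-labelled hearts thus stood beside lower Adipoq and Car3, and the part of fat tissue in them was not tested. In GRK-Inh hearts the tested adipocyte markers gave 0 higher and 1 lower, Fabp4, while Scd1 was called higher. Of all genes tested, 5.85% were called higher and 7.25% lower there.

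**Figure D3:**
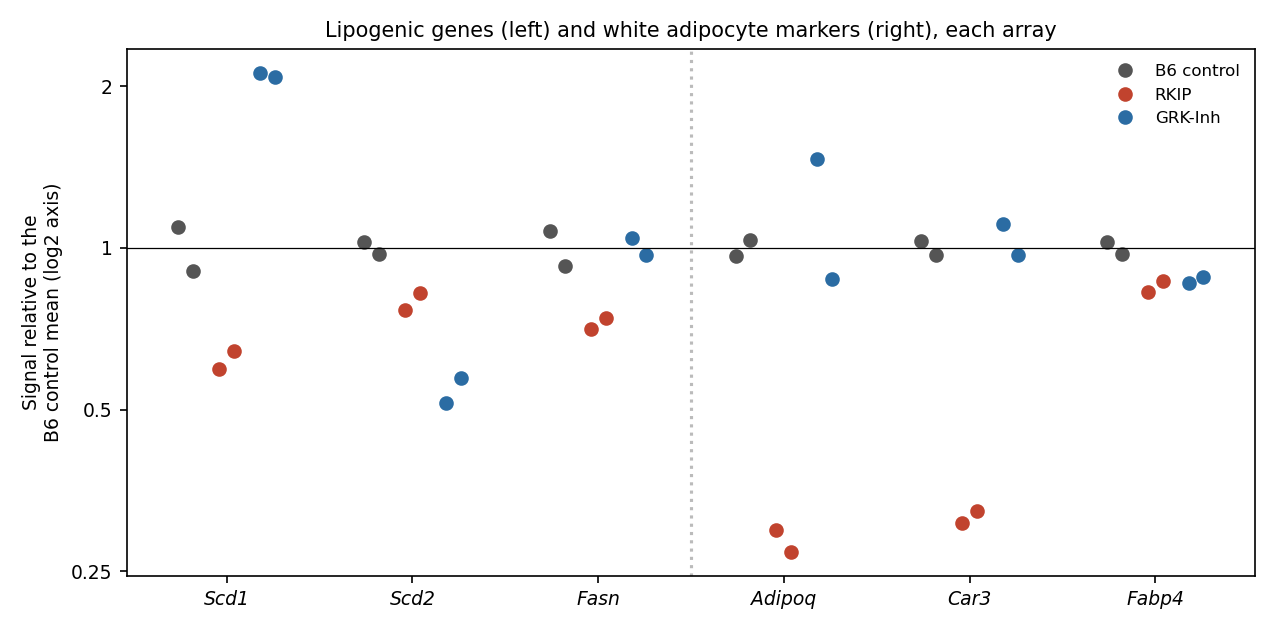
Signal on each array relative to the mean of the control arrays (vertical log2 axis, 1 is the control mean) for Scd1, Scd2 and Fasn (left) and the white adipocyte markers Adipoq, Car3 and Fabp4 (right). Adipoq and Car3 are low on the RKIP-labelled arrays. On the GRK-Inh arrays Car3 is near control, and Adipoq lies on either side of it (signals of 434 and 260, against 288 and 307 in control). There Scd1 is high and Scd2 low.

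Markers of other cell types were read in the same way. Of all genes tested, 5.52% were called lower in RKIP-labelled and 7.25% in GRK-Inh hearts, and 5.32% and 5.85% higher. The 6 endothelial markers summed to 4809 to 4823 in control, 3890 to 3942 in RKIP-labelled and 4726 to 4816 in GRK-Inh hearts, and 2 and 1 of them fell in the lines. The 8 fibroblast markers summed to 49337 to 52102, 37034 to 37280 and 34478 to 34932 in the same order, lower in both lines as Scd2 and Srebf1 were, and 6 fell in RKIP-labelled and 7 in GRK-Inh hearts. The 6 macrophage markers summed to 8172 to 8484, 7379 to 7482 and 6338 to 6369, with 1 and 3 fallen. The sums of the 7 Schwann cell and myelin markers overlapped between control (2684 to 2731) and GRK-Inh hearts (2642 to 2727) and were 2598 to 2641 in RKIP-labelled hearts, and of these markers 0 fell and Mal rose in each line. The brown adipocyte list had 2 tested members, of which Cidea, the gene of a lipid droplet protein, rose in RKIP-labelled hearts, from 919 and 940.0 in control to 1171 and 1238. Of the 5 liver markers 1, Ttr, was tested and not called, at 36.7 to 96.3 over the arrays. The 8 heart muscle markers summed to 221130 to 228950 in control, 215880 to 218910 in RKIP-labelled and 215250 to 216760 in GRK-Inh hearts. None rose, Actc1 and Myl7 fell in RKIP-labelled hearts, and Atp2a2 fell in GRK-Inh hearts. Myl7 gave 16982 and 17293 in control, 13313 and 13494 in RKIP-labelled, and 17244 and 17163 in GRK-Inh hearts. Its fall in RKIP-labelled hearts was 0.35 ± 0.033 (limma adjusted p = 7.4e-05). The part of these cell types in the changes of the 10 genes was not tested.

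The wider pathway was read from lists of other genes. Over all genes tested, 10.8% were called against control in RKIP-labelled and 13.1% in GRK-Inh hearts, and the count of each list stands beside these shares. Among 17 tested regulators of fatty acid synthesis, 2 rose and 1 fell in RKIP-labelled hearts and 0 rose and 1 fell in GRK-Inh hearts, with medians of 0.041 and 0.038. Mlxipl, which encodes the carbohydrate-sensing factor ChREBP, rose from 238 and 247 in control to 350.2 and 387 in RKIP-labelled hearts (log2 fold change 0.52 ± 0.12, limma adjusted p = 0.0178). Thrsp, the lipogenic Spot 14 gene, rose by 0.28 ± 0.077 (adjusted p = 0.0399, lost under 12 of 18 settings), and Fbxw7, whose ubiquitin ligase marks SREBPs for breakdown, fell by 0.24 ± 0.058 (limma adjusted p = 0.0237, and -0.16 and not called with probe sets averaged). Mid1ip1, a partner of Thrsp that activates acetyl-CoA carboxylase, fell in GRK-Inh hearts from 3379 and 3269 to 2765 and 2668 (limma log2 fold change -0.29 ± 0.050, adjusted p = 0.00353). Without RKIP-labelled array 2 or without either control array none of the regulators was called in RKIP-labelled hearts, and without RKIP-labelled array 1 only 1 was.

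Of 13 tested genes of substrate and NADPH supply, 1 rose and 1 fell in RKIP-labelled hearts and 0 rose and 2 fell in GRK-Inh hearts (medians -0.066 and -0.025). The shares called over all genes tested were 10.8% and 13.1%. Idh1, the cytosolic NADPH-making isocitrate dehydrogenase, gave 2108 and 1926 in control, 2412 and 2388 in RKIP-labelled, and 1552 and 1529 in GRK-Inh hearts. It was thus above control in one line (0.25 ± 0.060, limma adjusted p = 0.0247, kept under 13 of 18 settings and lost without either RKIP-labelled array or control array 2) and below it in the other (-0.38 ± 0.060, adjusted p = 0.00198). The lines differed by 0.62 ± 0.060 (limma adjusted p = 0.000111). Nnt, the mitochondrial transhydrogenase, a gene known to be defective in some B6 substrains, gave 13589 and 14269 in control, 11385 and 11228 in RKIP-labelled, and 7501 and 7422 in GRK-Inh hearts. It fell by 0.30 ± 0.039 and 0.90 ± 0.039 (limma adjusted p = 0.000688 and 1.7e-07). The call in RKIP-labelled hearts was lost when probe sets were averaged (limma adjusted p = 0.167) or the variance did not follow the signal level, and that in GRK-Inh hearts was kept under all 18 settings. The labels give the background only as B6, and substrain and transgene cannot be told apart here.

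Of 11 tested genes among the other desaturases and the elongation cycle, 0 rose and 3 fell in RKIP-labelled hearts and 0 rose and 2 fell in GRK-Inh hearts (medians -0.15 and -0.046). The shares called lower over all genes tested were 5.52% and 7.25%. Hacd1, the muscle form of the dehydratase in the elongation cycle, fell in both lines, from 9749 and 9872 in control to 4918 and 4750 in RKIP-labelled and 6918 and 6542 in GRK-Inh hearts. The log2 fold changes were -1.01 ± 0.044 (limma adjusted p = 3.6e-07) and -0.54 ± 0.044 (adjusted p = 1.9e-05), and both calls were kept under all 18 settings. Hacd4, a related dehydratase-like gene, fell in GRK-Inh hearts from 359 and 393 to 179 and 158 (limma log2 fold change -0.97 ± 0.13, adjusted p = 0.000589). The elongation reductase gene Hsd17b12 fell by 0.32 ± 0.074 in RKIP-labelled hearts (limma adjusted p = 0.0187). That call was lost without either RKIP-labelled array, without control array 1 and with a variance without trend, and with probe sets averaged (-0.12, adjusted p = 0.303). Degs1, which makes ceramide by desaturation, fell by 0.19 ± 0.054 (limma adjusted p = 0.0497), lost under 15 of 18 settings and at -0.088 with probe sets averaged. Without either RKIP-labelled array or control array 1, the count of 3 was 1.

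Mitochondrial fatty acid synthesis, the separate pathway that feeds lipoic acid, gave 0 called of 8 tested genes in RKIP-labelled hearts by limma, with 1 at an unadjusted p under 0.05. In GRK-Inh hearts the lipoate synthase gene Lias fell by 0.23 ± 0.061 (limma adjusted p = 0.0292). This call was lost under 7 of 18 settings, among them without either GRK-Inh array, without control array 1 (-0.15) and with probe sets averaged (-0.21). Cholesterol synthesis, which is driven by the sister factor SREBP-2, gave 1 higher of 14 tested genes in RKIP-labelled and 0 called in GRK-Inh hearts by limma (medians 0.21 and -0.021). In the latter 0 of the 14 had an unadjusted p under 0.05. For both pathways, the shares called over all genes tested were 10.8% in RKIP-labelled and 13.1% in GRK-Inh hearts. The squalene synthase gene Fdft1 was the cholesterol gene called in RKIP-labelled hearts (0.20 ± 0.056, limma adjusted p = 0.0423), and 5 of 18 settings kept it. With its probe sets averaged, its value was -0.14.

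**Figure D4:**
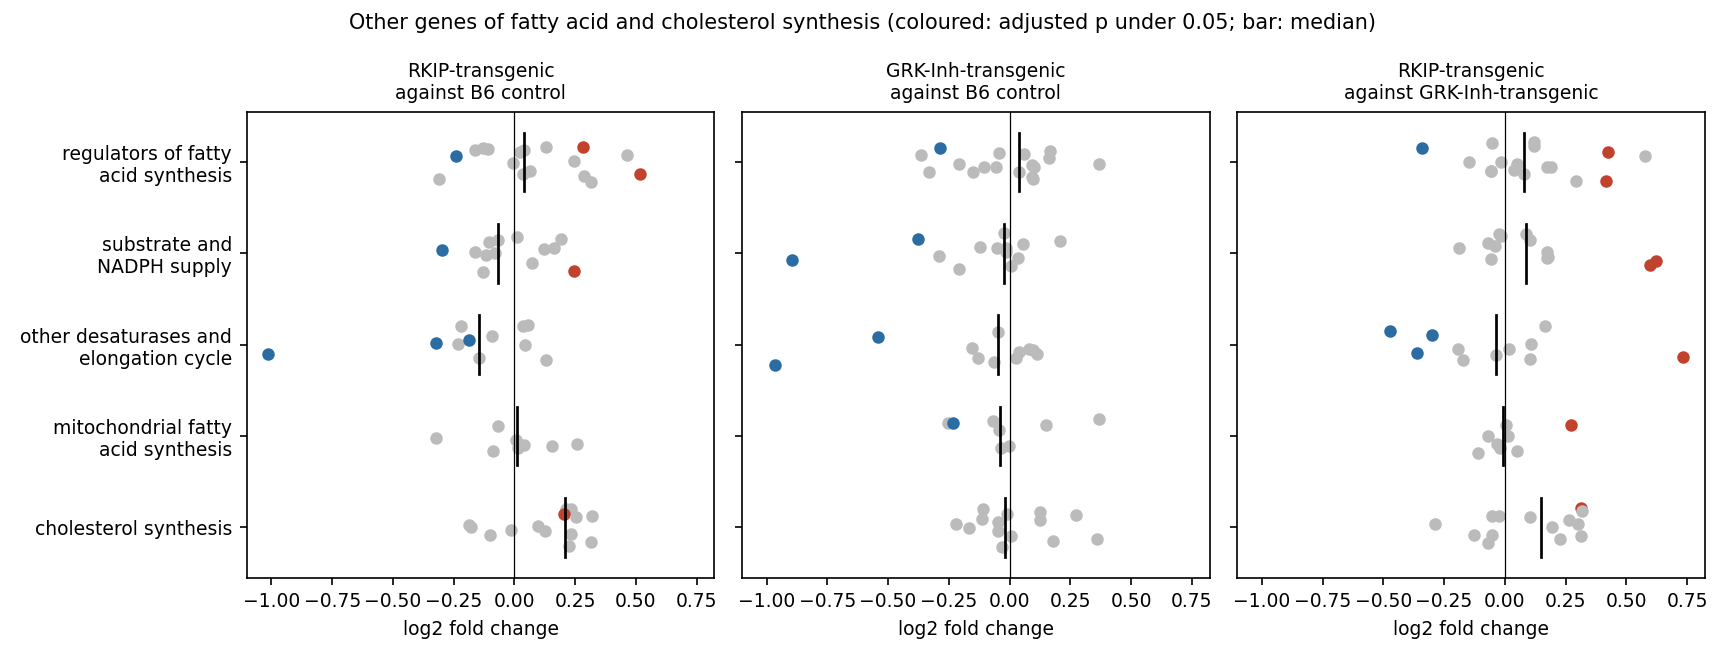
Log2 fold change (horizontal axis) of the tested genes of 5 lists in 3 comparisons; red and blue points passed an adjusted p of 0.05 (higher and lower), grey points did not, and the bar is the median of a list. Hacd1 lies farthest to the left in RKIP-labelled hearts (-1.01), and Hacd4 and Nnt (-0.97 and -0.90) in GRK-Inh hearts.

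Scd1 had the smallest p of the 9 genes in the limma F-test over the 3 groups, followed by Scd2. Over the 6 arrays, the tested genes with the pattern most like that of Scd1 were Nfil3 (Pearson r = 0.995), Rc3h1 (0.995) and Lyve1 (0.994). Each was lowest on the RKIP-labelled arrays and highest on the GRK-Inh arrays, with Nfil3 at 208 and 208, 413 and 436, and 283 and 250.1 in RKIP-labelled, GRK-Inh and control hearts. These genes were picked for likeness from 11254, on arrays that share their group structure, and the values are a description.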

How the data were processed

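The authors deposited a linear intensity per probe set for each array, computed with GCOS, for which the submitters' processing notes give no version number. On all 6 arrays these deposited intensities shared a 2% trimmed mean of 300.002, and they were not normalized further. The table held 45101 probe sets. After 64 control probe sets were set aside, 34945 had a single gene symbol in the platform annotation, 932 several and 9160 none, and only the first kind was named. Signals were taken as log2 of the signal plus 50. The brightest probe set stood for each of 18193 genes, and the 11254 with a mean log2 value of at least 6.65 were tested.

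The test was limma 3.58.1 in R 4.3.3, a linear model over the 6 arrays (3 residual degrees of freedom) with moderated variances that follow a trend with the signal, two-sided, with calls made where the p adjusted over all genes tested (Benjamini-Hochberg) was under 0.05. The number of arrays limits the precision (median SE of a log2 fold change 0.115). With 2 arrays against 2, no permutation test can pass, so none was run. Groups and replicate numbers come from the sample titles.

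The 10 genes, the lists and the tests were chosen with earlier results of these data known. Named were all 10 genes, up to 4 called members of each pathway list per comparison, defining markers, Pebp1, and the 3 genes most like the gene with the smallest F-test p. Listed genes without a probe set in the annotation were not analysed here. The 18 other settings were 2 other normalizations, offsets of 16 and 200, no filter or one at the 75th percentile, single or averaged probe sets, variances without trend or robust, the replicate number as a block, only the compared arrays, and each array left out. Promoter sequences are RefSeq's (GRCm38.p6). The array annotation names no build, so no gene coordinates are given. Figures used Python 3.11.15 and matplotlib 3.10.9.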

Additional observations from a re-analysis of the deposited data

Results flagged for a closer look

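The genes below were singled out because their change from control differed between the lines by the direct limma test of RKIP-labelled against GRK-Inh hearts. Scd1 (-1.66) and Idh1 (0.62) were called in opposite directions against control. Scd2 (0.51), Nnt (0.60) and Hacd1 (-0.47) fell in both lines, by different amounts. The Nnt difference was 0.34 and not called with its probe sets averaged. Acly (-0.32), Fasn (-0.41), Fbxw7 (-0.34), Hsd17b12 (-0.36) and Fdft1 (0.31) were called against control in the RKIP-labelled hearts and not in the GRK-Inh hearts. The same was true of Mlxipl (0.43), whose difference between the lines was lost under 14 of 18 settings. Mid1ip1 (0.42), Hacd4 (0.74) and Lias (0.27) were called against control in the GRK-Inh hearts and not in the RKIP-labelled hearts. The differences between the lines of Fasn, Lias, Acly and Hsd17b12 were lost under 10, 7, 5 and 4 of 18 settings. Those of Fdft1, Scd2, Fbxw7, Nnt and Mid1ip1 were lost under 1 to 3. The differences of Scd1, Idh1, Hacd1 and Hacd4 were kept under all 18. Hacd3 (-0.30), a dehydratase gene of the elongation cycle, was called in neither line against control. Its difference between the lines was lost under 11 of 18 settings, each single-array omission included, and was -0.076 with probe sets averaged (adjusted p = 0.737 by limma). With probe sets averaged the differences of Fbxw7 and Fdft1 were -0.21 and 0.18, the latter no longer called. Values are log2 differences, RKIP-labelled minus GRK-Inh. Groups of 2 arrays allow no test for a single array that stands apart.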

How the results depend on the processing

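No direction of a called value of the 10 genes turned under any setting. Of 161 values in each comparison, the call or its absence was kept for 125 in RKIP-labelled hearts, 155 in GRK-Inh hearts and 143 between the lines. In RKIP-labelled hearts the count of 7 called genes was 4 without a filter, 4 with probe sets averaged (Srebf1, Fasn and Scd1 of the 7, and Me1 in addition), 1 with a variance without trend, and 3 to 6 with 1 array left out. In GRK-Inh hearts the count of 4 was 2 to 4 with 1 array left out, and each of the other settings gave 3 or 4. Between the lines the count of 4 was 2 with probe sets averaged, 1 with a variance without trend and 2 to 4 with 1 array left out. Leaving out an array leaves its group with 1 sample, which is assumed to vary like the others. The cause of the losses was not tested. Of the listed genes, Fdft1 turned to -0.14 in RKIP-labelled hearts with probe sets averaged. Over all genes, a variance without trend gave 293 called in RKIP-labelled hearts in place of 1220, 726 in place of 1474 in GRK-Inh hearts and 251 in place of 995 between the lines. With the replicate number as a block, 6, 4 and 3 of the 10 genes were called in the 3 comparisons, and the call of Fasn was lost. The differences between replicates 1 and 2 correlated by -0.035 to 0.026 between groups over 11254 genes. No replicate effect shared between groups was thus seen over the genes as a whole. A pairing that acts on few genes would not be seen this way. Dim probe sets, those of Elovl6 among them, limit what could be seen.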
